A study of Bos taurus with 9 samples.

Results

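S100A11 and NUCB2 are the pair of calcium-binding protein genes with the highest mean transcript levels in vitrified bovine blastocysts among the 47 genes in the deposited series table. They were picked by name, as 2 of the 47, for their high levels and for how those levels differed between the groups described here. Since the levels in all 9 libraries took part in that choice, the values are given as a description, without a test. The table is headed as a list of differentially expressed genes. How they were selected is not stated in the labels or files used, and all other genes were not analysed here. The AKG-free group was recorded as an extreme for all listed genes. An extreme AKG-free level is thus shared by the list and is not particular to the pair.

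A blastocyst is the early embryo with a fluid-filled cavity. The AKG-treated group was vitrified, warmed and given α-ketoglutarate (AKG), a metabolite of the mitochondrial citric acid cycle. The AKG-free group was vitrified and warmed without AKG, and the control group was labelled only as control. Each group had 3 libraries, all labelled as female Bos taurus embryo. The labels do not state the dose or timing of AKG, the age or breed of the embryos, or how many embryos went into a library. The libraries are labelled single-cell, but their source is the embryo, made with a SMART-Seq low-input kit. A lower share of cells of a type and less RNA per cell cannot be told apart in such libraries. Of the markers fixed for embryo lineages and other cells, 1 of 14 for trophectoderm was in the table (PAG11) and 0 of 6 for the inner cell mass, 0 of 6 for hypoblast, 0 of 7 for cumulus or granulosa cells, 0 of 4 for blood and 0 of 4 for sperm, so the tissue label could be checked against PAG11 alone.

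S100A11 belongs to the S100 family, small proteins that bind calcium through a pair of EF-hand loops, work as dimers and then attach to partners such as annexins at membranes. In human cells S100A11 is known for its binding to annexin A1 and for roles in plasma membrane repair and in growth of epithelial cells. NUCB2, nucleobindin 2, is a larger EF-hand protein of the Golgi and the secretory route, and in rodents its processing releases nesfatin-1, a peptide best known for reducing food intake. Intracellular calcium rises are a known response of mouse oocytes to some cryoprotectants.

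Positions are those of the deposited annotation, for which no build was stated. It places S100A11 (ENSBTAG00000015145) on the plus strand of chromosome 3, from 18727498 to 18733580, with 2 transcripts. It places NUCB2 (ENSBTAG00000017468) on the minus strand of chromosome 15, from 35156660 to 35179353, with 1 transcript. Both are annotated as protein coding, and values cover whole genes, with exons and untranslated parts not told apart. In the RefSeq annotation of ARS-UCD2.0, used here for names and order only, the next coding genes beside S100A11 are TCHHL1 and S100A10, and those beside NUCB2 are NCR3LG1 and PIK3C2A. That annotation has 0 genes overlapping either of them. It names 17 S100 genes by symbol, 14 of them on chromosome 3, and 1 of the 17, S100A11, was in the deposited table.

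NUCB2 was the most abundant or the next most abundant of the 29 genes with a mean of at least 0.5 FPKM in every library. FPKM counts fragments per kilobase of transcript, scaled to library depth, so levels can be set side by side between genes. NUCB2 averaged 198 ± 77.7 FPKM in the AKG-treated group, 599 ± 304 in the AKG-free group and 112 ± 1.93 in the control group (SD, n = 3 each). S100A11 averaged 64.3 ± 32.8 FPKM in the AKG-treated group, 1034 ± 913 in the AKG-free group and 24.5 ± 0.945 in the control group (SD, n = 3 each). By mean FPKM, S100A11 was thus below NUCB2 in AKG-treated and control libraries and above it in AKG-free libraries, where their spreads overlapped.

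Other listed genes lay close to S100A11 in 2 of the 3 groups. Its neighbour in AKG-treated libraries was ENSBTAG00000052882, a gene without a symbol, at 56.7 ± 5.97 FPKM, which lay inside the spread of S100A11. In control libraries S100A11 stood at rank 7, and ROGDI, the gene next above it, had 27.7 ± 10.4 FPKM (SD, n = 3 libraries each). In AKG-free libraries the gene after the pair was COX7B2, a subunit of cytochrome c oxidase, at 222 ± 143 FPKM.

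In single libraries, S100A11 had 92.4, 28.4 and 72.2 FPKM in libraries 1, 2 and 3 of the AKG-treated group, 57.4, 1178 and 1866 FPKM in libraries 1, 2 and 3 of the AKG-free group, and 24.9, 25.1 and 23.4 FPKM in libraries 1, 2 and 3 of the control group. AKG-free libraries 2 and 3 stood far above the other 7, while AKG-free library 1 lay inside the range of the AKG-treated libraries. The counts behind these levels were 7004, 2351 and 6207 in the AKG-treated group, 5320, 100184 and 182658 in the AKG-free group, and 2290, 1671 and 1786 in the control group.

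NUCB2 had 281, 185 and 127 FPKM in libraries 1, 2 and 3 of the AKG-treated group, 265, 674 and 859 FPKM in libraries 1, 2 and 3 of the AKG-free group, and 111, 111 and 114 FPKM in libraries 1, 2 and 3 of the control group. Its highest AKG-treated library was above its lowest AKG-free library, and the control libraries were the lowest of all. Its counts were 23070, 16577 and 11862 in the AKG-treated group, 26630, 62032 and 90981 in the AKG-free group, and 11047, 8017 and 9461 in the control group.

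**Figure D1:**
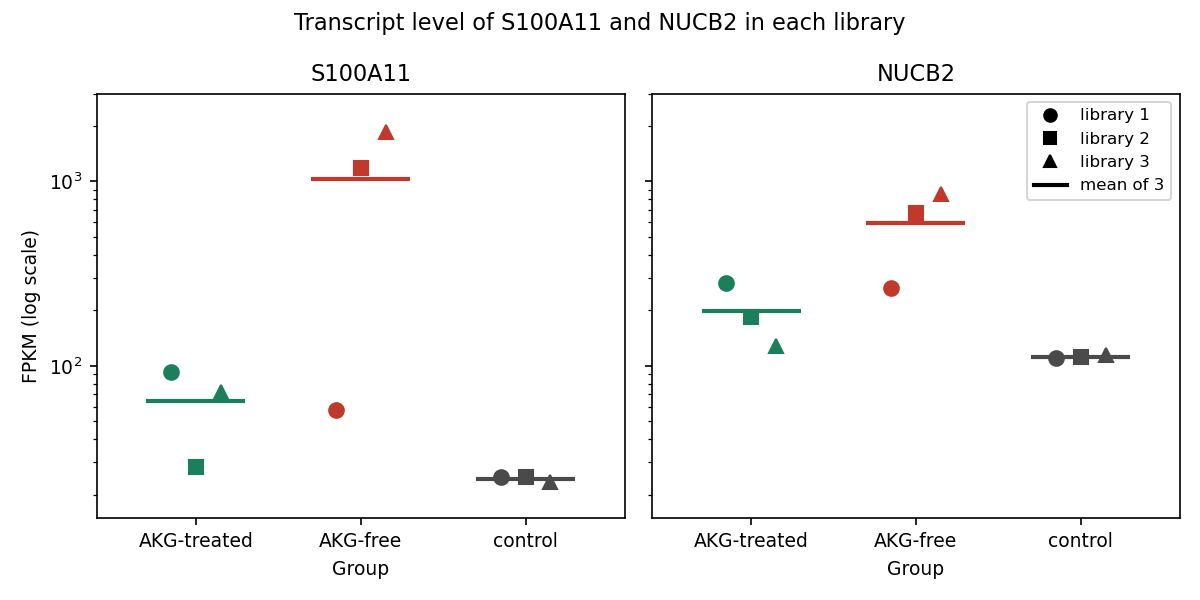
FPKM on a log scale of S100A11 (left) and NUCB2 (right) in the 9 libraries by group, with symbols for the library number and a bar at the mean of 3. The control libraries lie together near 24.5 FPKM for S100A11 and 112 FPKM for NUCB2, and AKG-free libraries 2 and 3 are the highest for both genes.

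The control libraries were closely alike for both genes. The coefficient of variation among them was 1.72% for NUCB2, the lowest among the 24 of these 29 genes with reads in controls, and 3.86% for S100A11, the third lowest, against a median of 46.9%. Counting error alone, taken as the inverse root of the count, was 0.951% to 1.12% for NUCB2 and 2.09% to 2.45% for S100A11 in these libraries, and it covers counting only, since PCR copies of a molecule were not told apart. In AKG-free libraries the coefficients were 50.7% for NUCB2 and 88.3% for S100A11, against a median of 65.6% over 26 genes. In AKG-treated libraries they were 39.3% for NUCB2 and 50.9% for S100A11, against a median of 44.5% over 26 genes. Counting error was at most 2.06% for either gene in the vitrified libraries, so the spread there was many times larger than counting.

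Together, the pair made up a large part of the counts of the table. NUCB2 and S100A11 jointly took 59.2%, 50.6% and 46.5% of the listed counts in libraries 1, 2 and 3 of the AKG-treated group, 57.1%, 78.0% and 75.4% in those of the AKG-free group, and 34.7%, 26.6% and 34.9% in those of the control group. Every vitrified library was above every control library in this share. The other 45 genes summed to 18500 to 20800 counts in the AKG-treated group, 23990, 45684 and 89144 counts in AKG-free libraries 1, 2 and 3, and 20983 to 26736 counts in control libraries. Even if all of the annotated span were transcript, the FPKM of AKG-free library 3 would put S100A11 at no more than 1.14% and NUCB2 at no more than 1.95% of its mapped fragments, so neither could have taken up much of a library.

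**Figure D2:**
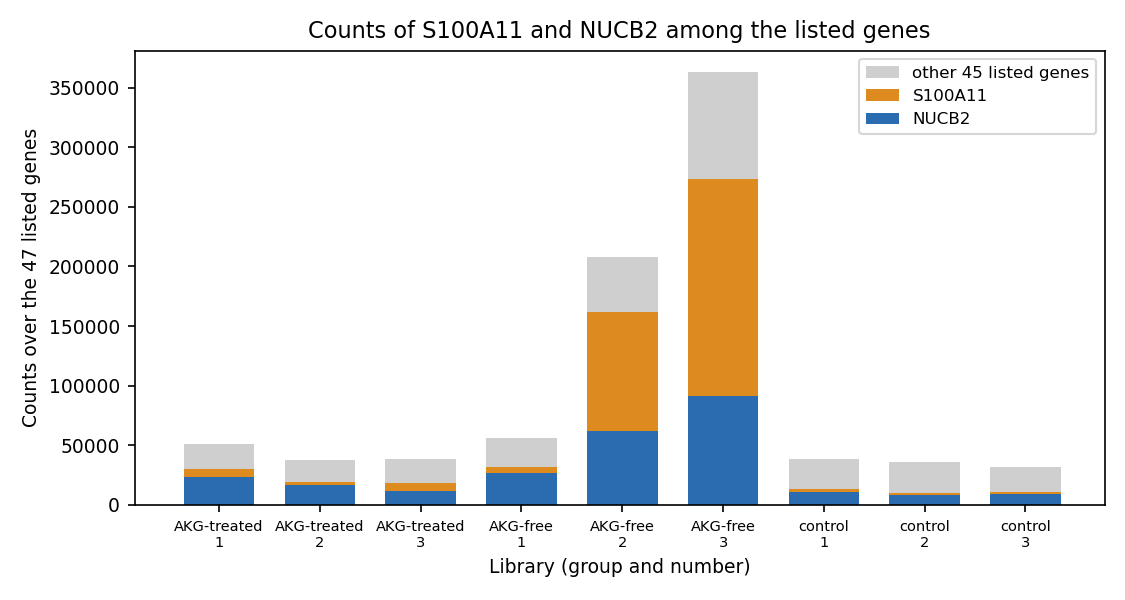
Counts over the 47 listed genes in each library, stacked as NUCB2, S100A11 and the other 45 genes. AKG-free libraries 2 and 3 reach 207900 and 362783 counts, of which the pair made up 78.0% and 75.4%, while the other 7 libraries lie between 32230 and 55940 counts.

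AKG-free blastocysts were set against controls to ask how embryos vitrified and warmed without AKG compare with the control group. Mean S100A11 was 42.3-fold and mean NUCB2 5.34-fold the control mean, given as a description. All 3 AKG-free libraries were above all 3 control libraries for both genes, as was the case for 51.7% of the 29 genes, from which nothing follows for a pair chosen on this contrast. Relative to the control mean, AKG-free libraries 1, 2 and 3 had 2.34, 48.1 and 76.3 times as much S100A11 and 2.36, 6.003 and 7.65 times as much NUCB2. In library 1 both genes thus stood at nearly the same multiple of the control level, and in libraries 2 and 3 the multiple of S100A11 was far above that of NUCB2. On the log2(FPKM + 1) scale the group means differed by 4.31 for S100A11 and 2.24 for NUCB2, beside a median of 1.67 over the 29 genes. Without AKG-free library 3 the S100A11 ratio was 25.2 instead of 42.3, and without library 1 it was 62.2. With TMM factors over the listed genes, the log2 ratio of means was 2.95 instead of 5.40 for S100A11 and 0.24 instead of 2.42 for NUCB2.

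AKG-free library 1 was low for most genes that were high in its group. Of the 21 genes among the 29 with a higher mean FPKM in AKG-free libraries than in the other 6 libraries, 17 had their lowest AKG-free value in library 1 and 0 had their highest there. PAG11, a glycoprotein that ruminant trophoblast cells secrete, had 1.36, 17.1 and 2.90 FPKM in libraries 1, 2 and 3 of the AKG-treated group, 42.2, 67.9 and 24.0 FPKM in libraries 1, 2 and 3 of the AKG-free group, and 1.52, 0 and 1.44 FPKM in libraries 1, 2 and 3 of the control group. Its AKG-free library 1 was above library 3, unlike S100A11 and NUCB2. The part of library 1, or of trophoblast RNA, in the levels of the pair was not tested.

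AKG-treated blastocysts were set against AKG-free blastocysts to ask how AKG goes with these levels after vitrification. Mean S100A11 was 64.3 FPKM with AKG and 1034 FPKM without it, a log2 ratio of -4.01 that became -1.88 with TMM factors over the listed genes. Mean NUCB2 was 198 FPKM with AKG and 599 FPKM without it, a log2 ratio of -1.60 that became 0.13 with the same factors. On the log2(FPKM + 1) scale the means differed by -3.11 for S100A11 and -1.51 for NUCB2, beside a median of -1.39 over the 29 genes. Libraries of these groups overlapped for both genes. Groups were separate, with AKG-treated libraries lower, for 41.4% of the 29 genes, and the pair was not among them. AKG-free library 1, at 57.4 FPKM of S100A11, was below AKG-treated libraries 1 and 3, and at 265 FPKM of NUCB2 it was below AKG-treated library 1. AKG-free libraries 2 and 3 were above every AKG-treated library for both genes. The AKG-free mean of S100A11 was 16.1 times the AKG-treated mean with all libraries but 9.60 times without AKG-free library 3. This contrast shares its AKG-free libraries with the contrast against controls.

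AKG-treated blastocysts were set against controls to ask how embryos vitrified, warmed and given AKG compare with the control group. Mean S100A11 was 2.63-fold and mean NUCB2 1.76-fold the control mean. S100A11 was higher in all 3 AKG-treated libraries than in all 3 control libraries, and so was NUCB2, as was the case for 20.7% of the 29 genes, from which nothing follows for a chosen pair. The lowest AKG-treated library was 1.13 times the highest control library for S100A11 and 1.11 times for NUCB2. On the log2(FPKM + 1) scale the means differed by 1.20 for S100A11 and 0.74 for NUCB2, beside a median of 0.15 over the 29 genes. Relative to the control mean, AKG-treated libraries 1, 2 and 3 had 3.78, 1.16 and 2.95 times as much S100A11 and 2.51, 1.65 and 1.14 times as much NUCB2. The lowest was library 2 for S100A11 and library 3 for NUCB2, so the pair did not share its order over these libraries.

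The level of S100A11 relative to NUCB2 within a library does not depend on the depth or scaling of that library. The ratio of S100A11 to NUCB2 in FPKM was 0.329, 0.154 and 0.567 in libraries 1, 2 and 3 of the AKG-treated group, 0.216, 1.75 and 2.17 in those of the AKG-free group, and 0.224, 0.226 and 0.204 in those of the control group. AKG-free library 1 was within the range of the controls, and AKG-free libraries 2 and 3 were the only libraries in which S100A11 exceeded NUCB2. On the log2 scale the ratio averaged -1.71 ± 0.95 in the AKG-treated group, -0.09 ± 1.84 in the AKG-free group and -2.20 ± 0.08 in the control group (SD, n = 3 each). The AKG-treated libraries lay on both sides of the controls, with library 2 below and libraries 1 and 3 above them. The count to FPKM ratio of S100A11, divided by that of NUCB2, stayed between 0.9236 and 0.9239 over the 9 libraries. The same relative transcript length was thus behind the FPKM of every library.

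**Figure D3:**
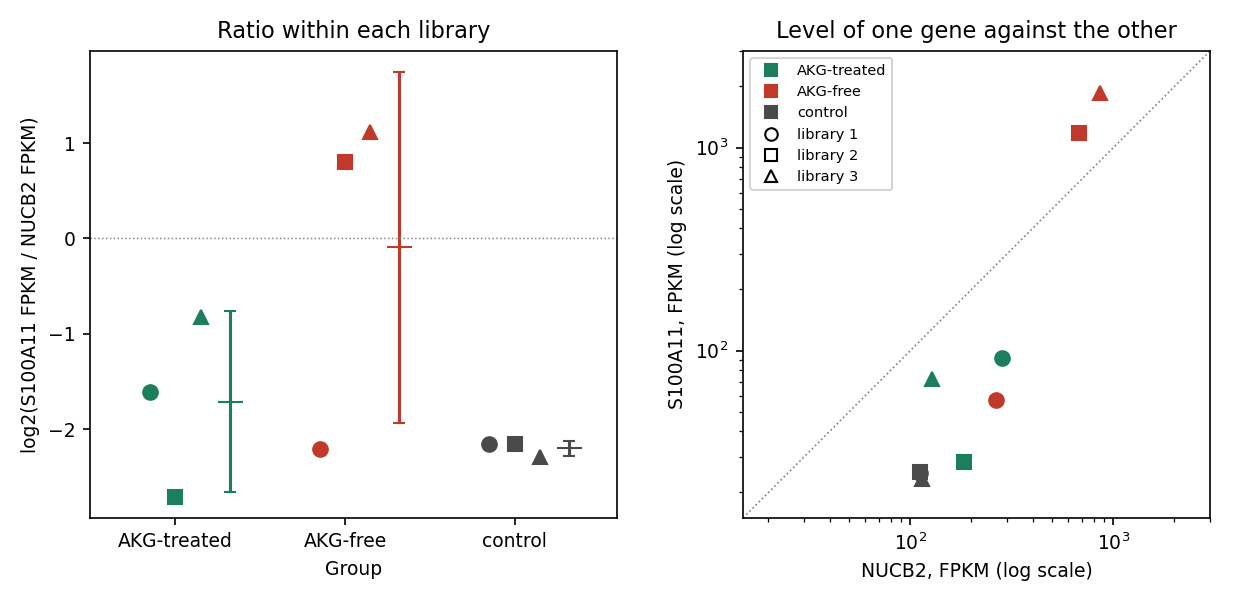
Left, log2 of the S100A11 to NUCB2 ratio in FPKM for each library by group, with the mean and SD of 3 libraries beside the points. Right, S100A11 against NUCB2 in FPKM on log scales, with a dotted line of equal level; only AKG-free libraries 2 and 3, at ratios of 1.75 and 2.17, lie above it.

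The profile of each gene over the 9 libraries was set beside the 22 others of the 29 genes with a symbol, by the root mean square difference of log2(FPKM + 1) after centring. These distances describe likeness, and all genes share the same libraries and come from 1 list of genes chosen on them. For NUCB2 the nearest were MOGAT1 at 0.295, LIPH, a phospholipase, at 0.362 and MANEA, a mannosidase of the Golgi, at 0.383 log2 units. MANEA had 30.3, 25.6 and 22.4 FPKM in libraries 1, 2 and 3 of the AKG-treated group, 35.5, 75.6 and 64.5 FPKM in libraries 1, 2 and 3 of the AKG-free group, and 17.0, 9.47 and 16.9 FPKM in libraries 1, 2 and 3 of the control group. It was, like NUCB2, lowest in library 1 of the AKG-free group and lowest in library 3 of the AKG-treated group. The low AKG-free library 1 was shared by 17 of the 21 genes high in AKG-free libraries. MANEA was highest in AKG-free library 2, and NUCB2 in AKG-free library 3.

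None of the 22 genes compared lay as near to S100A11. The nearest were PLA2G7, which breaks down platelet-activating factor, at 1.16, CRYAB at 1.22 and AIF1 at 1.25 log2 units, and NUCB2 came after them at 1.31. The distance was not scaled to the size of a gene's changes, so larger changes alone can raise it. CRYAB had 0 FPKM in all control libraries, where the added 1 FPKM shrinks its changes. Centred values ran from -1.90 to 4.36 for S100A11 and from -1.01 to 1.93 for NUCB2. PLA2G7 had 0.954, 0.286 and 1.05 FPKM in libraries 1, 2 and 3 of the AKG-treated group, 1.22, 4.87 and 147 FPKM in libraries 1, 2 and 3 of the AKG-free group, and 0.574, 0.348 and 0.781 FPKM in libraries 1, 2 and 3 of the control group. It had the AKG-free libraries in the order of S100A11 and a low AKG-treated library 2, but its high level was in AKG-free library 3 alone.

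**Figure D4:**
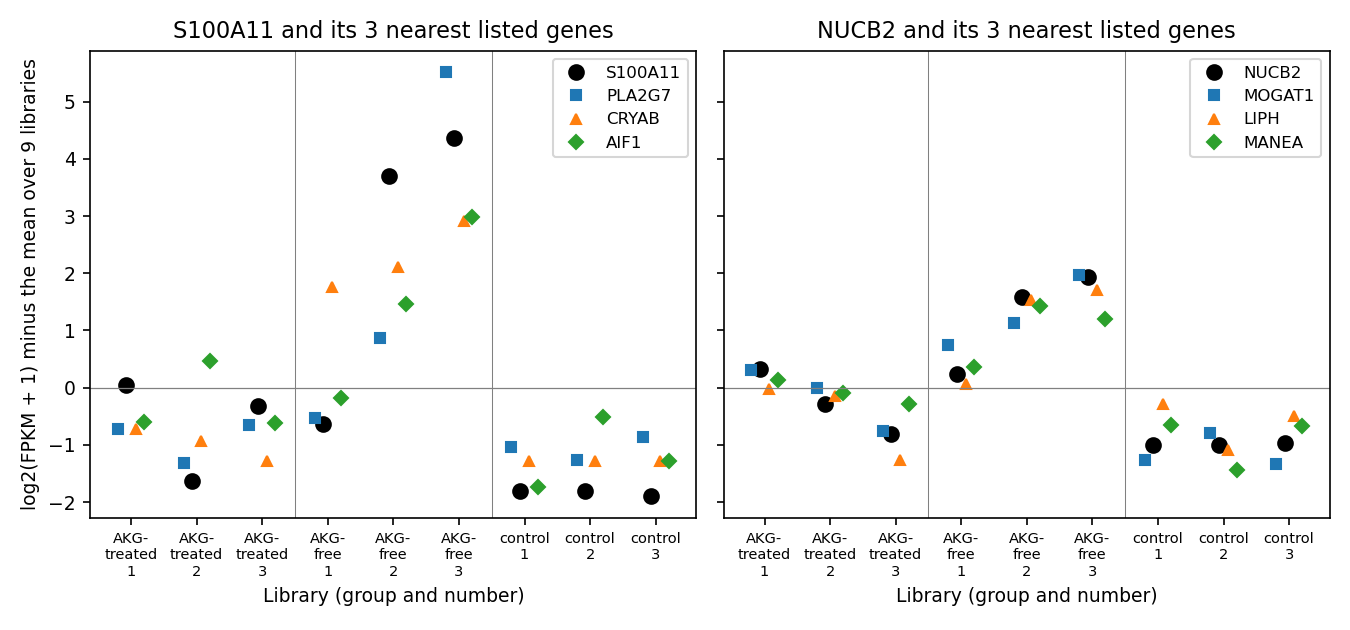
Log2(FPKM + 1) minus the gene's own mean over the 9 libraries, for S100A11 (left) and NUCB2 (right) with the 3 listed genes nearest to each, by library. The NUCB2 panel shows points close together, at distances of 0.295 to 0.383, and the S100A11 panel points farther apart, at 1.16 to 1.25. Distances were not scaled to the size of each gene's changes.

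Other genes of calcium binding were looked up among the 47 listed genes. The list used was written with earlier results known and names the pair itself. The share of calcium genes over all genes was not worked out, so the count says nothing about calcium genes as a set. Of a list of 71 names of S100 proteins, annexins, calmodulins, calcium stores, pumps and channels, 3 were present: S100A11, NUCB2 and AIF1, an EF-hand protein that binds actin and is best known from macrophages. AIF1 had 12.4, 27.0 and 12.2 FPKM in libraries 1, 2 and 3 of the AKG-treated group, 16.9, 55.0 and 160 FPKM in libraries 1, 2 and 3 of the AKG-free group, and 5.11, 13.2 and 7.29 FPKM in libraries 1, 2 and 3 of the control group. The lowest AKG-free value was in library 1 and the highest in library 3, an order that 11 of the 21 genes high in AKG-free libraries had, the pair, AIF1 and PLA2G7 included. Its groups overlapped between AKG-treated and control libraries. The partner annexin A1, the neighbouring S100 gene S100A10 and the NUCB2 paralog NUCB1 were not analysed here.

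The deposited annotation gives the term calcium ion binding to at least 4 of the 47 genes, S100A11 and NUCB2 together with FKBP7 and GPD2. For 5 genes the annotation terms were not shown, so others may carry it. FKBP7, an isomerase that helps proteins fold in the endoplasmic reticulum, averaged 5.39 ± 0.185 FPKM in the AKG-treated group, 15.8 ± 5.88 in the AKG-free group and 3.05 ± 1.37 in the control group. GPD2, the mitochondrial glycerol-3-phosphate dehydrogenase, averaged 4.69 ± 1.62 FPKM in the AKG-treated group, 11.3 ± 1.98 in the AKG-free group and 5.32 ± 3.38 in the control group (SD, n = 3 each). Both had their highest mean in AKG-free libraries, as did the pair, but at levels more than an order of magnitude below that of NUCB2 in all 3 groups. Of the 29 genes with a mean of at least 0.5 FPKM, 21 had a higher mean in AKG-free libraries than in the other 6. The shared high is thus common in the list and not particular to calcium binding.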

How the data were processed

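Transcript levels were measured by RNA sequencing of 9 bovine blastocyst libraries. Per the submitters' processing notes, the tools were edgeR, cutadapt 1.9, HISAT2 2.0.4 and StringTie 1.3.4d. A genome build, strand setting or role of each tool was not given in the sources used here. The authors deposited FPKM values (fragments per kilobase of transcript, corrected for library depth), per the file headers, in 1 table per library. The series table holds these FPKM values again beside raw counts, both as deposited by the authors. FPKM columns were identical in both places for all 9 libraries. FPKM does not correct for composition, and how reads shared by similar gene copies were assigned is unknown.

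Relative sequencing depth came from the ratio of count to FPKM over the 13 genes that had 100 counts or more in every library, which differed from a common factor by at most 0.709%. It ran from 0.793 to 1.17, and absolute depth is unknown. The 29 genes with a mean of at least 0.5 FPKM were tested across all genes of this short list with the quasi-likelihood test of edgeR 4.0.16 in R 4.3.3, on counts with relative depth as library size, all 9 libraries in 1 fit with 6 residual degrees of freedom, no dispersion trend, Benjamini-Hochberg adjustment and a threshold of 0.05. The step was tested on simulated data with larger changes than the pair showed between AKG-treated and control libraries. That run does not cover changes of the size reported for the pair. The edgeR step was planned as the test of AKG-treated against control libraries. Because the choice of S100A11 and NUCB2 drew on all 9 libraries, its differences are given as estimates and its p-values for the pair are not given. Alternatives were limma (version 3.58.1) on log2(FPKM + 1) and log2(FPKM + 0.1), DESeq2's Wald test (version 1.42.0), all 47 genes, a stricter filter at a mean of 5 FPKM, TMM factors, the replicate number as a term, a fit on the 6 compared libraries alone, and omission of each library in turn. Tables and plots used Python 3.11.15, numpy 2.4.6, pandas 2.3.3 and matplotlib 3.10.9.

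S100A11 and NUCB2, the calcium list and the tests were chosen with earlier results of these data known. The genes named beside the pair were those of the calcium list, those with the deposited calcium ion binding term, the 3 listed genes with a symbol whose profile lay nearest to each of the pair, and neighbours in level. Likeness was the root mean square difference of log2(FPKM + 1) over the 9 libraries, after each gene was centred on its own mean. The labels do not state whether the libraries of a group are separate embryo cultures, so the spread between libraries may be technical.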

Additional observations from a re-analysis of the deposited data

How the results depend on the processing

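In AKG-treated against control libraries the edgeR log2 difference, given as an estimate without a test, was 1.39 for S100A11 and 0.82 for NUCB2. Its standard error, from 1 fit that shared its spread with the AKG-free libraries, was 1.04 for S100A11 and 0.58 for NUCB2. With only the 6 compared libraries it was 0.54 for S100A11 and 0.44 for NUCB2. Other fits raised it, to 1.29 for S100A11 without control library 1 and to 0.75 for NUCB2 with the replicate number as a term. Both differences kept their direction under all 17 alternatives each, from 1.04 to 1.75 for S100A11 and from 0.37, with TMM factors, to 1.05 for NUCB2. Several alternatives left both estimates at 1.39 and 0.82: DESeq2, the other filters and the fits without AKG-free libraries. These kept the same depths and the same AKG-treated and control counts, so they could not move the estimates. Counts of genes past the threshold in that comparison, over a list chosen on these libraries, were 0 higher and 0 lower with edgeR (2 and 0 at an unadjusted threshold) and with the alternatives, except for 1 higher with DESeq2 and 1 higher without AKG-treated library 3, a range of 0 to 1 over the fits that left out a library.

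TMM factors over the listed genes take most of them as unchanged, although all are presented as differing, and lower the AKG-free libraries by construction. The factors ran from 0.485 to 1.13 in AKG-treated, 1.23 to 3.47 in AKG-free and 0.542 to 0.622 in control libraries. With them the log2 ratio of AKG-free to control means was 2.95 for S100A11 and 0.24 for NUCB2, and that of AKG-treated to AKG-free means was -1.88 for S100A11 and 0.13 for NUCB2. Leaving out 1 library gave 4.66 to 5.96 for S100A11 and 2.06 to 2.77 for NUCB2 in AKG-free against control libraries, and -4.56 to -3.26 for S100A11 and -1.95 to -1.25 for NUCB2 in AKG-treated against AKG-free libraries. The mean log2 ratio of S100A11 to NUCB2 in AKG-free libraries was -0.70 to 0.96 when 1 of them was left out. In control libraries the ratio of counts in place of FPKM was -2.31, since it keeps transcript length.

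With the replicate number as a block, the difference between AKG-treated and control libraries was 1.39 for S100A11 and 0.84 for NUCB2, with 0 genes higher and 0 lower. The labels give no shared litter, batch or day, so the numbers were not taken to pair the libraries. Deviations of same-numbered libraries correlated from -0.22 to 0.20, with the own number best in 5 of 9 pairs. These included every pair of an AKG-treated with an AKG-free library, and whether the libraries were paired was not tested. Absolute depth is unknown, and the lowest count of either gene was 1671.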
